A study of Mus musculus with 12 samples.

Results

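Expression of 6 genes that mark the 2-cell-like state of mouse embryonic stem (ES) cells was followed through 12 poly(A) RNA libraries. They are Zscan4c, Zscan4d, Zscan4f, Usp17lc, Tdpoz3 and Tdpoz4. The genes were chosen by name, as the rows of the count table whose Ensembl identifiers carry these symbols, and they are 6 of the 47643 genes in that table. All 6 had a row, none was without reads in any library, and all 6 passed the filter on low counts that left 14629 genes for testing. The cells were E14 ES cells of the 129/Ola background, grown on gelatin in serum and LIF with puromycin at 1 µg/mL. There were 6 groups of 2 libraries: a wild type (WT), a knockout of Dicer (KO), and the Dicer-complemented lines SOM, 41584, 41585 and 41589. The labels describe 41585 as unable to process miRNAs or siRNAs, 41589 as unable to process siRNAs, and 41584 as resembling the wild type. What SOM and the line numbers stand for, whether a line is 1 clone, and whether its 2 libraries came from separate cultures are not stated in these sources, so the p-values below measure only the spread between these libraries.

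At the 2-cell stage the mouse embryo begins transcription from its own genome and, for a short time, expresses genes that later stages keep silent. In ES cell cultures a small and changing fraction of cells re-enters a similar programme, with Zscan4 and its companions on, and then leaves it again. ZSCAN4 proteins combine a SCAN domain with zinc fingers and are known for their part in telomere lengthening. Usp17lc belongs to a family of deubiquitinating enzymes, which remove ubiquitin from other proteins. Tdpoz proteins join a TRAF domain to a POZ domain, a combination found in adaptors of ubiquitin ligases. Dicer cuts precursors into miRNAs and siRNAs, and the lines differ in which of these small RNAs they can make. In bulk RNA, a change in the number of cells in the state and a change in RNA per cell cannot be told apart.

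The members lie in 2 genomic clusters of recent gene copies and at 1 separate locus (GRCm38, GENCODE M21, all annotated as protein coding). Zscan4c spans chr7:11005745-11010547 on the plus strand, Zscan4d spans chr7:11161374-11166159 on the minus strand, and Zscan4f spans chr7:11397915-11402318 on the plus strand. Usp17lc spans chr7:103415072-103419880, Tdpoz3 spans chr3:93826020-93827117 and Tdpoz4 spans chr3:93796398-93797510, all on the plus strand. Tdpoz3 and Tdpoz4 have a single exon block each, of 1098 and 1113 bases, whereas the exons of the Zscan4 members sum to 1959 to 2276 bases.

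How far reads can separate these copies is set by their sequence, so a stretch of coding sequence is shown for each family. In GENCODE, Zscan4c and Zscan4f differed at 6 of 1518 coding bases (99.6% identity) and Zscan4d differed from each of them at 35 (97.7%). Coding bases 1032 to 1091, the first 60-base stretch with the most differences, hold 6 of the 38 positions at which the 3 genes are not all alike, shown in capitals.
Zscan4c: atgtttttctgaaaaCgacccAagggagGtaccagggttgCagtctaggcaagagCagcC
Zscan4d: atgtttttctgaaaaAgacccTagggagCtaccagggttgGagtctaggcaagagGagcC
Zscan4f: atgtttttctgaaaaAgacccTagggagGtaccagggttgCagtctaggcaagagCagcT
In this window Zscan4d stands apart from both other copies at 3 capitals, Zscan4c at 2 and Zscan4f at 1. Tdpoz3 and Tdpoz4 are much less alike, at 79.2% identity over 1084 aligned coding bases. Their alignment from base 432 to base 491 of Tdpoz3 holds 25 differences, again in capitals.
Tdpoz3: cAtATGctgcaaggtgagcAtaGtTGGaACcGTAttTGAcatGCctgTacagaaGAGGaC
Tdpoz4: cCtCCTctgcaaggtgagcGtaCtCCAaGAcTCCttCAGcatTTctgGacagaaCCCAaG
Of all 50-base words in the transcripts of each gene, the share found in at least 1 other gene was 85.5% for Zscan4c and 86.8% for Zscan4f but 49.6% for Zscan4d. It was 44.7% for Usp17lc, 66.2% for Tdpoz3 and 41.2% for Tdpoz4. Nothing in the sources used here tells how reads with several possible origins were counted. The split between Zscan4c and Zscan4f in particular is therefore uncertain, and sums over copies are given as well. These sums leave out Zscan4-ps2, which held 71.4% of the words of Zscan4c and 77.1% of those of Zscan4f. They also leave out Gm4982, which held 66.2% of the words of Tdpoz3, so summing does not remove the uncertainty.

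The promoters are shown because the 3 Zscan4 members and Usp17lc share features of them. RefSeq promoter sequences (GRCm38.p6) were matched for 5 of the 6 members, and the 140 bases before the RefSeq start are printed with the motifs TATAAAA and TGATAGAATCA in capitals. Their positions, in the order printed, are chr7:11005605-11005744, chr7:11166149-11166288 (minus strand), chr7:11397775-11397914, chr7:103416556-103416695 and chr3:93796258-93796397.
Zscan4c: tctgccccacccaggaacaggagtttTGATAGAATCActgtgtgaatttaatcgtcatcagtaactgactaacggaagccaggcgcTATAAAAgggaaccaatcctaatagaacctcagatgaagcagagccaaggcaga
Zscan4d: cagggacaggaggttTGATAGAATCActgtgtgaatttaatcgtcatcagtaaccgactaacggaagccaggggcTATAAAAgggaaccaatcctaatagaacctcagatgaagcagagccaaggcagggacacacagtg
Zscan4f: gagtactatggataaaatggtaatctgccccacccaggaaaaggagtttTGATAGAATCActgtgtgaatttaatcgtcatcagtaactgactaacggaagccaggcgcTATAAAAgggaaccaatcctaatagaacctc
Usp17lc: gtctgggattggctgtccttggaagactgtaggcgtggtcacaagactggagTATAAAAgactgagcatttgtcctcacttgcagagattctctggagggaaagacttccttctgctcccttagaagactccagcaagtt
Tdpoz4: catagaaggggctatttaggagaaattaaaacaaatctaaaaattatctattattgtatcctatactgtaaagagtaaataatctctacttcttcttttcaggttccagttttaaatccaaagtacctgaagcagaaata
TATAAAA, the core of a TATA box, stood on the sense strand of 4 of these promoters, starting 54, 65, 31 and 88 bases before the start of Zscan4c, Zscan4d, Zscan4f and Usp17lc. It was found on the sense strand of 3.27% of all 32851 RefSeq windows of 300 bases and on either strand of 5.48%. TGATAGAATCA is, read on the other strand, a match to TGATT and ATCA with any 2 bases between them, a loose form of the site bound by DUX, the transcription factor that opens the 2-cell programme. That pattern was present in the 3 Zscan4 windows and in 0.21% of all windows on either strand. TGCACAC, a word reported for ZSCAN4 binding, was found in none of the 5 windows and in 4.4% of all windows. Between copies, the Zscan4c and Zscan4f windows were 99.3% identical, and Zscan4d was 97.2% and 97.4% identical to them. The windows of the 5 members held 0 to 4 CG dinucleotides each, and 38% of all windows held at most 4. The Usp17lc window lies inside the GENCODE span of its gene. The Tdpoz4 window ends directly before a gene model of 1113 exon bases, of which 1110 are coding. Whether transcription starts at the end of either window was not tested. These motif matches describe letters and do not show binding.

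The libraries held 5348401 to 10428509 counted reads, with TMM scaling factors from 0.9039 to 1.079 and 3.17 to 5.18% of reads from mitochondrial genes. Levels below are CPM, the reads of a gene per 1000000 reads of the TMM-scaled library total. Dicer1 stood at 198 and 214 CPM in the WT libraries, 28.5 and 44.0 in KO, 29.1 and 39.2 in 41585, 42.3 and 55.0 in 41584, 40.2 and 27.8 in 41589, and 105 and 215 in SOM. The KO libraries therefore carried less Dicer1 RNA than WT (log2 fold −2.50 ± 0.36 SE, edgeR quasi-likelihood test, adjusted p = 0.0015), and so did those of 41585 (−2.59 ± 0.36, adjusted p = 0.0012). For 41584 and 41589 the log2 folds against WT were −2.08 ± 0.35 and −2.598 ± 0.36. Their unadjusted p were 5.2e-05 and 6.6e-06 (edgeR), and the adjusted p 0.35 and 0.097, in comparisons with 0 genes called. Like those of KO and 41585, all libraries of these lines lay far below both WT libraries. For SOM the log2 fold was −0.36 ± 0.34 (edgeR, adjusted p = 0.53). The 8 ES cell markers were present in all libraries and summed to 4679 to 6681 CPM, with Utf1 the lowest at 5.57 CPM or more. In KO against WT 0 of the 8 were called, beside 13.2% of all tested genes. In 41585 against WT 2 rose and 1 fell, beside 16.3% and 12.9%. Pou5f1 rose by a log2 fold of 1.96 ± 0.45 SE and Utf1 by 2.02 ± 0.54 (edgeR, adjusted p = 0.0096 and 0.018). Sox2 had a log2 fold of −0.79 ± 0.28 (edgeR, adjusted p = 0.049). The F test over the 6 groups called 1 marker, Fgf4 (edgeR, adjusted p = 0.0021). Markers of other cells are given with the groups they move with, further on.

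The 6 genes were together most abundant in 41585. Summed over the 6, the 2 libraries of 41585 measured 161 and 127 CPM, those of 41584 measured 76.5 and 61.9, those of KO 67.8 and 39.3, and those of WT 45.6 and 44.7. In 41589 and SOM the 2 libraries were far apart, at 99.8 and 13.9 CPM in 41589 and at 66.3 and 8.83 CPM in SOM. The range of 41585 did not overlap that of any other group, and the ranges of all other neighbours in the order of means (41584, 41589, KO, WT, SOM) overlapped.

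Zscan4c measured 50.2 and 38.7 CPM in 41585, 31.5 and 23.2 in 41584, 36.1 and 5.11 in 41589, 14.7 and 21 in WT, 20.3 and 9.55 in KO, and 21.6 and 3.01 in SOM. Its 2 highest values were the 41585 libraries, and no other pair of neighbouring groups was separated. Zscan4f followed nearly the same order, with 34.3 and 29.7 CPM in 41585, 33.5 and 4.02 in 41589, 22.8 and 14.3 in 41584, 13.9 and 11.2 in WT, 12.8 and 9.08 in KO, and 18.2 and 1.503 in SOM. Here the higher 41589 library reached into the range of 41585, so the groups did not separate at the top. For neither gene did the 6 groups differ by the F test of the edgeR fit, with adjusted p = 0.42 for Zscan4c and 0.54 for Zscan4f.

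Zscan4d differed from its sister copies in where KO stood. It measured 50.9 and 38.9 CPM in 41585, 23.4 and 14.2 in KO, 15.2 and 18.0 in 41584, 25.7 and 3.38 in 41589, 18.2 and 3.01 in SOM, and 10.2 and 7.99 in WT. KO was thus second by its mean of 18.8 ± 6.5 CPM (SD, n = 2) and WT last at 9.10 ± 1.57 CPM, whereas for Zscan4c WT lay above KO, with overlapping ranges. The F test gave adjusted p = 0.20 for Zscan4d in the edgeR fit.

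Usp17lc was clearly counted at lower levels. It measured 13.7 and 8.36 CPM in 41585, 4.73 and 3.42 in 41584, 4.76 and 2.62 in KO, 3.25 and 2.63 in WT, 4.29 and 0.564 in SOM, and 3.32 and 0.822 in 41589. The 41585 libraries lay above all others, and the remaining groups overlapped their neighbours (F test in edgeR, adjusted p = 0.13).

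Tdpoz3 and Tdpoz4 were the members whose groups separated by test. Tdpoz3 measured 6.08 and 5.66 CPM in 41585, 3.29 and 2.001 in KO, 2.63 and 1.64 in WT, 1.37 and 0.188 in SOM, 1.02 and 0.466 in 41584, and 0.535 and 0.365 in 41589. WT and KO overlapped each other and both lay above the 3 complemented lines that are not 41585. Tdpoz4 measured 5.38 and 5.27 CPM in 41585, 3.29 and 1.85 in KO, 1.28 and 2.49 in 41584, 2.74 and 0.564 in SOM, 0.928 and 0.328 in WT, and 0.642 and 0.183 in 41589. In contrast to Tdpoz3, WT stood near the bottom of its order, overlapping 41589. The F test over the 6 groups gave adjusted p = 0.016 for Tdpoz3 and 0.040 for Tdpoz4 (edgeR), so that 2 of the 6 members were called, where 14.4% of all tested genes were. Without either 41585 library, 0 members were called by this test. It called 1 member without either WT library, without either KO library or without the second 41589 library, and 4 without the first 41589 library. Counts behind these values were small, at 1 to 52 reads per library for Tdpoz3 and 2 to 46 for Tdpoz4. The value of 0.188 CPM for Tdpoz3 in the second SOM library is 1 read, with a 95% Poisson interval of 0.00476 to 1.05 CPM, which covers counting error only.

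**Figure D1:**
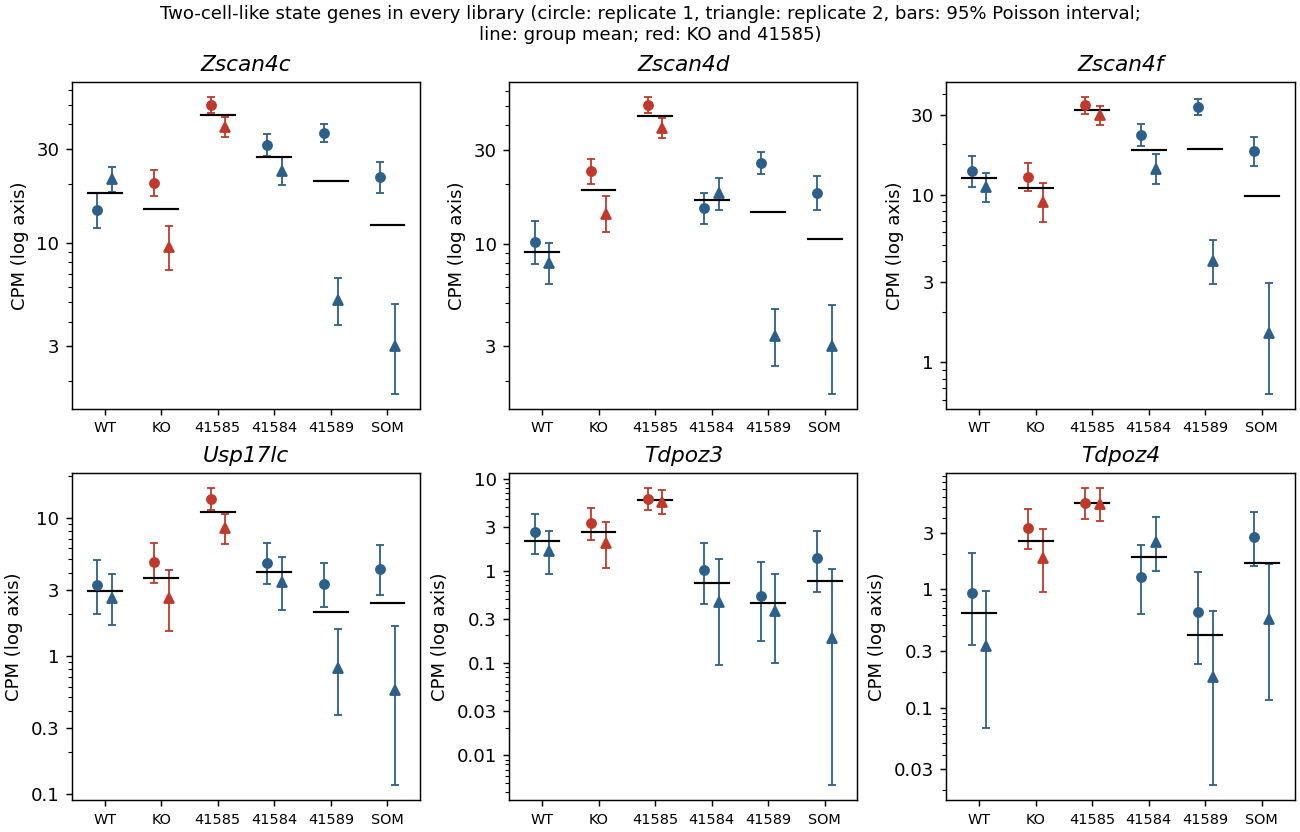
Level of each gene in the 12 libraries, in CPM on a log axis, by group. Circles and triangles are the first and second library of a group, bars the 95% Poisson interval of the count, and black lines the arithmetic mean of the group, with KO and 41585 in red and the other groups in blue. The 41585 libraries are the 2 highest for every gene but Zscan4f, and the second libraries of 41589 and SOM are the lowest or among the lowest.

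Per kilobase of exon, which adjusts for gene length only, the means in 41585 were 19.8 ± 3.7 CPM per kb for Zscan4d, 19.5 ± 3.6 for Zscan4c and 16.3 ± 1.6 for Zscan4f (SD, n = 2). Tdpoz3 followed with 5.35 ± 0.27, Tdpoz4 with 4.79 ± 0.069 and Usp17lc with 4.495 ± 1.54 CPM per kb. In WT the order was Zscan4c at 7.84 ± 1.96, Zscan4f at 6.4 ± 0.997, Zscan4d at 4.004 ± 0.69, Tdpoz3 at 1.94 ± 0.64, Usp17lc at 1.197 ± 0.18 and Tdpoz4 at 0.564 ± 0.381 CPM per kb. As counted, Zscan4d was level with Zscan4c in 41585 and lay below it in both WT libraries. The share of sequence found in other genes differs between the members, and how such reads were counted is not known. The order of different genes on this scale is therefore uncertain.

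Loss of Dicer alone was tested as KO against WT. None of the 6 genes was called (edgeR, 1 at an unadjusted p under 0.05, and 0 by DESeq2), beside 13.2% of all tested genes. Tdpoz4 had the largest fitted log2 fold, 2.08 ± 0.83 SE, with adjusted p = 0.11, and Zscan4d followed with 1.05 ± 0.78 and adjusted p = 0.39. The other 4 lay between −0.26 ± 0.80 for Zscan4c and 0.34 ± 0.75 for Usp17lc, each within 1 SE of 0. These 4 folds changed sign when 1 KO or WT library was left out, so no direction can be given for them.

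The line unable to process miRNAs or siRNAs was then set against WT. In 41585, 2 of the 6 members were called against 29.2% of all tested genes, and both were higher, as were 16.3% of all. Tdpoz4 rose by a log2 fold of 3.12 ± 0.81 SE (edgeR, adjusted p = 0.016) and Zscan4d by 2.31 ± 0.79 (adjusted p = 0.045). DESeq2 called 2 members as well, Tdpoz4 (adjusted p = 0.0056) and Usp17lc (1.90 ± 0.75, adjusted p = 0.039), but not Zscan4d. Which second member was called thus depended on the program. Usp17lc, at 1.91 ± 0.74, and Tdpoz3, at 1.47 ± 0.64, had an unadjusted p under 0.05 and adjusted p of 0.067 and 0.095. Zscan4c and Zscan4f had log2 folds of 1.31 ± 0.79 and 1.35 ± 0.87 with adjusted p of 0.22 and 0.24. The median over the members was 1.69, beside −0.001 over all tested genes. The count fell to 0 when either WT or either 41585 library was left out and to 1 without either KO library. It was 6 when only the 4 libraries compared entered the fit, beside 6023 of 13843 tested genes. Without the second libraries of 41589 and SOM, which stand apart from their partners, the median log2 fold of the members was 1.69.

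Against 41584, the complemented line labelled as resembling the wild type, 41585 had 1 member called, Tdpoz3, with a log2 fold of 2.93 ± 0.71 SE (edgeR, adjusted p = 0.022) beside 12.7% of all tested genes. Zscan4d, Usp17lc and Tdpoz4 had log2 folds of 1.43 ± 0.76, 1.43 ± 0.72 and 1.51 ± 0.72, with adjusted p from 0.17 to 0.21. For Zscan4c and Zscan4f the log2 folds were 0.70 ± 0.78 and 0.79 ± 0.85. The call was lost without either 41585 library, without the second 41584 library and when only these 4 libraries were fitted, and 2 members were called without the second 41589 and SOM libraries.

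Set against KO in a comparison added after the data were seen, 41585 had 0 members called in a comparison with 0% of all tested genes called (edgeR, with 0 members and 995 genes at an unadjusted p under 0.05, and 0 members and 1 gene by DESeq2). All 6 fitted log2 folds were positive, from 1.04 ± 0.70 SE for Tdpoz4 to 1.57 ± 0.80 for Zscan4c, with a median of 1.40 beside 0.003 for all genes. Their adjusted p lay at 0.64 in each case, so that the higher levels in 41585 than in KO did not pass the test.

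When KO and 41585 were averaged and set against the mean of WT, SOM, 41584 and 41589, Tdpoz3 and Tdpoz4 were called. Tdpoz3 was higher by a log2 fold of 2.16 ± 0.40 SE (edgeR, adjusted p = 0.0016) and Tdpoz4 by 1.97 ± 0.45 (adjusted p = 0.0053). This is 2 of 6 members, beside 32.2% of all tested genes called and 17.6% called higher. Zscan4d at 1.24 ± 0.45 and Usp17lc at 1.198 ± 0.44 lay just outside in edgeR, with adjusted p = 0.052 and 0.053. DESeq2 called Usp17lc beside the Tdpoz genes (1.19 ± 0.46, adjusted p = 0.033) but not Zscan4d. Zscan4c and Zscan4f, at 0.46 ± 0.48 and 0.38 ± 0.52, showed no difference larger than the spread between libraries. Both Tdpoz genes were called in each of the 17 alternative fits, with adjusted p up to 0.018 for Tdpoz3 and up to 0.048 for Tdpoz4. Without the second 41589 and SOM libraries their log2 folds were 1.91 and 1.63, Zscan4d was called too at 0.84, and Zscan4f turned to −0.05.

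**Figure D2:**
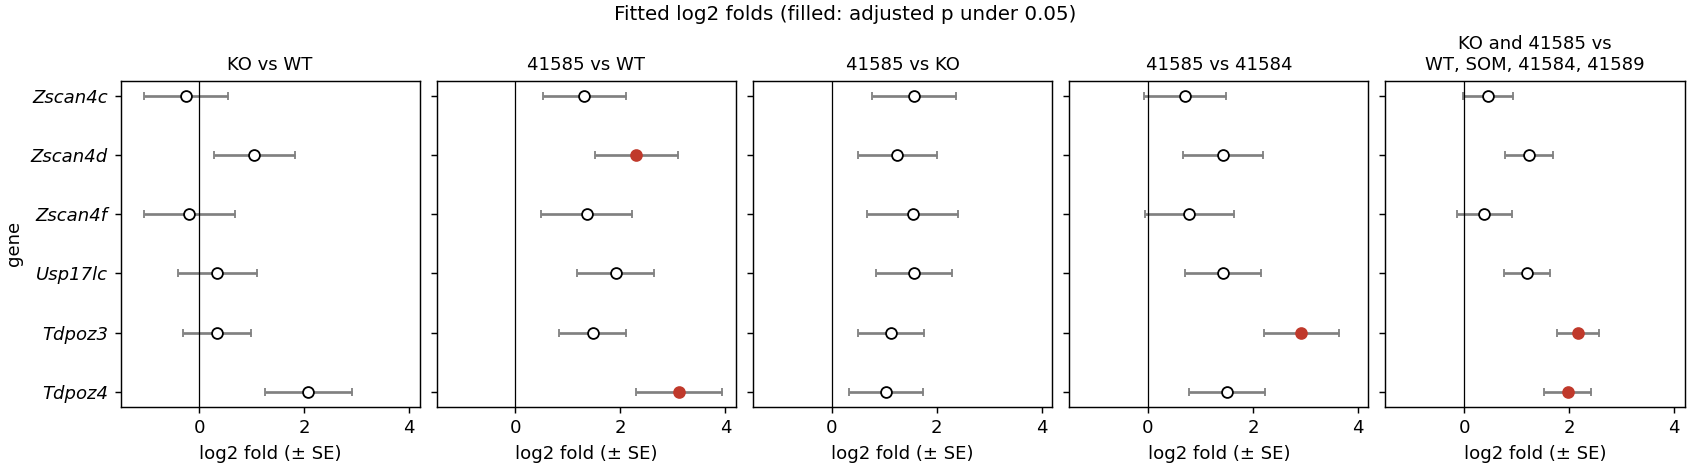
Fitted log2 folds of the 6 genes in 5 comparisons, with bars of 1 standard error and filled points where the adjusted p was under 0.05. Tdpoz3 and Tdpoz4 are filled in the pooled comparison, Tdpoz4 and Zscan4d in 41585 against WT, and Tdpoz3 in 41585 against 41584.

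The other complemented lines, 41584, 41589 and SOM, were set against WT and KO as well. For 41584, 41589 and SOM against WT, edgeR called 0 members and 0% of all genes, while 706, 1719 and 3175 genes had an unadjusted p under 0.05. DESeq2 called 0 members and 28, 75 and 681 genes. The 1 member with an unadjusted p under 0.05 in these 3 comparisons was Tdpoz3 in 41589 against WT, with a log2 fold of −2.20 ± 0.75 SE (edgeR, adjusted p = 0.41). Against KO, edgeR called 0 members in 41584, 41589 and SOM, beside 7.44%, 7.09% and 6.08% of all genes. Tdpoz3 and Tdpoz4 in 41589 came nearest, with log2 folds of −2.54 ± 0.74 (adjusted p = 0.057) and −2.64 ± 0.84 (adjusted p = 0.079). There DESeq2 called Tdpoz3 (log2 fold −2.59, adjusted p = 0.041), and edgeR called it lower when either 41584 or either SOM library was left out, with adjusted p of 0.038 to 0.041. Without both the second 41589 and the second SOM library, Tdpoz3 was not called (−2.28, adjusted p = 0.14) and Zscan4f was called higher in 41589 than in KO instead (1.61 ± 0.37, edgeR, adjusted p = 0.045). In 41589 against 41584, which asks what siRNA processing adds, edgeR and DESeq2 each called 0 members and 0% of all genes, with 1 member (Tdpoz4, log2 fold −2.17 ± 0.85 SE, adjusted p = 1.00) at an unadjusted p under 0.05. These comparisons share the WT, KO or 41584 libraries and are not independent of each other.

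The 2 libraries of a group differed most in 41589 and SOM. In 41589 the first library exceeded the second by 7.07-fold for Zscan4c, 7.60-fold for Zscan4d, 8.33-fold for Zscan4f and 4.03-fold for Usp17lc, and by 3.51-fold for Tdpoz4 and 1.46-fold for Tdpoz3. In SOM the ratios ran from 4.87-fold for Tdpoz4 to 12.1-fold for Zscan4f. In the other 4 groups the higher library exceeded the lower by 1.02-fold (Tdpoz4 in 41585) to 2.83-fold (Tdpoz4 in WT). The library numbered 1 was the higher for 6 of the 6 members in KO, 41585, 41589 and SOM, for 5 in WT and for 4 in 41584. The second 41589 library was the deepest of all, at 10428509 reads, and the second SOM library the shallowest, at 5348401. Mitochondrial shares of these libraries were 3.17% and 4.04%, and their Dicer1 levels 27.8 and 215 CPM. The part of depth and of what the library number stands for in these values was not tested.

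Across the 12 libraries the members moved together to different degrees. On log2(CPM + 1), Pearson's r was 0.97 between Zscan4c and Zscan4f, 0.90 between Zscan4d and each of them, and 0.94 between Zscan4d and Usp17lc. Between Tdpoz3 and Tdpoz4 it was 0.74, and the lowest value of all was 0.57, between Tdpoz3 and Zscan4f. These are descriptions over libraries that share groups, depth and, for near-identical copies, possibly reads.

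The make-up of the reads within a library needs no scaling between libraries, and it separated some of the groups. Among reads of the 3 Zscan4 members, Zscan4d took 41.5% and 43.2% in KO and 37.6% and 36.2% in 41585. It took 26.3% and 19.9% in WT, 21.9% and 32.5% in 41584, 26.9% and 27.0% in 41589, and 31.4% and 40.0% in SOM. The KO and 41585 libraries lay above those of WT, 41584 and 41589. The last SOM value rests on 40 reads, with a 95% Wilson interval of 26.4 to 55.4%, and reaches into the range of the KO and 41585 libraries. Tdpoz3 and Tdpoz4 together made up 10.44% and 10.5% of the reads of the 5 Zscan4 and Tdpoz members in KO and 7.81% and 9.25% in 41585. The share was 8.39% and 4.68% in WT, 6.63% and 9.09% in SOM, 3.21% and 5.05% in 41584, and 1.22% and 4.196% in 41589. The shares of WT and SOM overlapped those of 41585, and the shares of 41584 and 41589 lay below all 4 KO and 41585 values. These shares were formed after the levels had been seen, so no test is given, and the intervals cover counting error only.

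**Figure D3:**
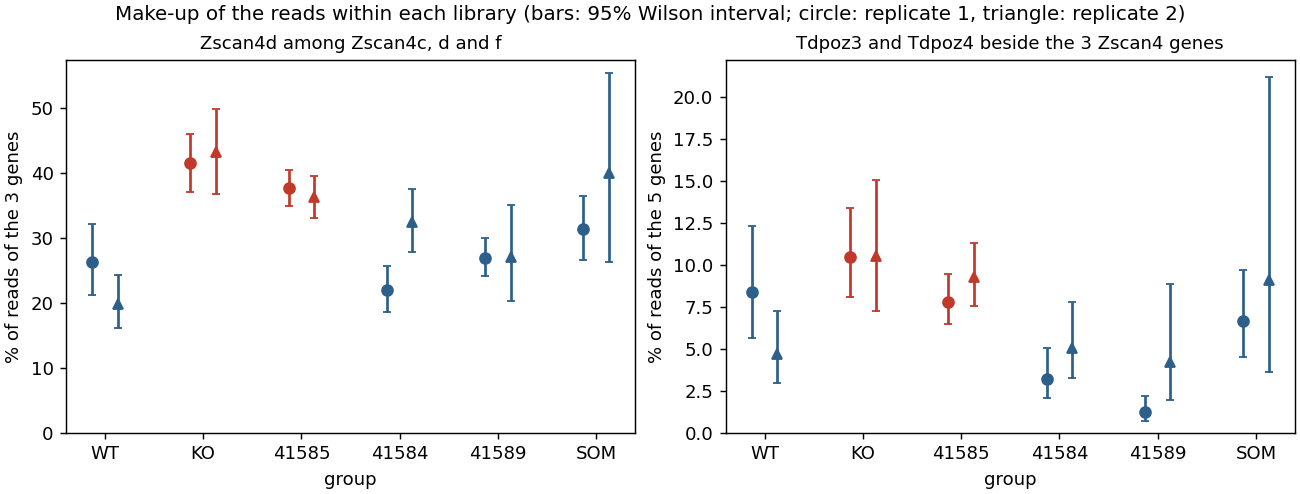
Left, Zscan4d as a percentage of the reads of Zscan4c, Zscan4d and Zscan4f. Right, Tdpoz3 and Tdpoz4 as a percentage of the reads of these 2 and the 3 Zscan4 members. Points are libraries (circle first, triangle second), bars are 95% Wilson intervals, and KO and 41585 are red. The Zscan4d share is 36.2% or more in all 4 red libraries and 32.5% or less in WT, 41584 and 41589.

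Other copies of the same families were measured as well. Zscan4b and Zscan4e, with 420 and 931 reads in total, were also highest in 41585, at means of 9.19 and 17.7 CPM against 2.79 and 8.18 in WT and 3.02 and 6.50 in KO. Of the Usp17l copies, Usp17lb (10.04 CPM) and Usp17ld (3.47 CPM) had their highest mean in 41585. Usp17la and Usp17le instead had their highest means in 41584, at 7.09 and 11.6 CPM, and means of 2.34 and 2.36 CPM in KO against 6.03 and 7.91 in WT. None of these 6 copies was called in KO against WT, 41585 against WT or the pooled comparison (edgeR, adjusted p of 0.086 or more). Tdpoz1, Tdpoz2 and Tdpoz5 held 4, 9 and 0 reads over all libraries. Among the copies named Tdpoz, Tdpoz3 and Tdpoz4 thus carried nearly all reads. Genes under other names share sequence with them, and their reads were not examined. Gm4982 held 66.2% of the 50-base words of Tdpoz3, and Gm5541 held 31.0% of those of Tdpoz4.

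The wider 2-cell programme was read from a list of 43 other genes reported to be transcribed at the 2-cell stage, of which 41 were found in the table and 28 passed the filter. Their summed level was 367 and 269 CPM in 41585, 253 and 192 in 41584, 250 and 64.6 in 41589, 232 and 165 in WT, 164 and 96.8 in KO, and 175 and 68.2 in SOM. Both 41585 libraries were again the highest, and the second 41589 and SOM libraries again the lowest. The list holds Zscan4b, Zscan4e and Usp17l copies, which may share reads with the members. Both WT libraries exceeded both KO libraries on this list, but the lower WT value (165 CPM) barely passed the higher KO value (164 CPM). Ddit4l alone had means of 45.5 CPM in WT and 14.3 in KO, and the order without it was not examined. The 6 members summed to a similar level in WT and KO. In 41585 against WT, 3 of the 28 rose (Abcb5, AF067063 and Tcstv3) and 1 fell (Ddit4l), with 24 fitted above 0 and a median log2 fold of 1.02 beside −0.001 for all genes. In KO against WT, 0 rose and 1 fell, with 8 fitted above 0 and a median of −0.26. In 41585 against KO, edgeR called 0 of the 28, with 27 fitted above 0 and a median of 1.55. In the pooled comparison 4 rose (Sp110, AF067063, AF067061 and Tcstv3) and 1 fell (Ddit4l), with a median of 0.54. As shares of the 28, the genes called were 14.3% or 17.9% of the list in the comparisons with most calls, below the 29.2% and 32.2% of all tested genes. Tcstv3, a gene of a cluster named for its variable 2-cell transcription, had a mean of 5.17 CPM in 41585, 1.24 in KO and 0.232 in WT (edgeR, 41585 against WT, adjusted p = 0.020). Ddit4l, related to the mTOR inhibitor DDIT4, was lower in KO by a log2 fold of −1.67 ± 0.37 SE (edgeR, adjusted p = 0.014) and in 41585 by −1.08 ± 0.36 (adjusted p = 0.041). Leaving out 1 library at a time, the list had 0 to 7 genes called in 41585 against WT and 1 to 11 in the pooled comparison.

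**Figure D4:**
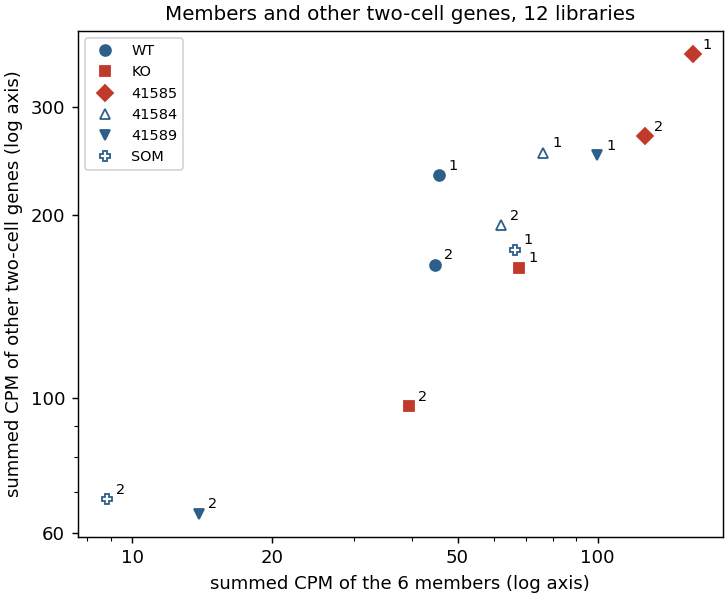
Summed CPM of the 6 members (horizontal, log axis) against the summed CPM of the other 2-cell genes (vertical, log axis) in each of the 12 libraries, numbered by replicate, with KO and 41585 in red. The 41585 libraries lie at the top right (161 and 127 CPM of members) and the second libraries of SOM and 41589 at the bottom left (8.83 and 13.9 CPM).

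By likeness to the mean standardised profile of the members over the 12 libraries, the 6 nearest of 13888 other genes were Gm20767 and Gm21761 (Pearson's r = 0.98 each), Gm8994 (0.96), Gm8332 (0.95), Naalad2 (0.95) and D13Ertd608e (0.94). Gm20767, Gm21761 and D13Ertd608e lie near each other on chromosome 13, at chr13:120140246-120155335, chr13:119912095-119929272 and chr13:119836006-119846570. Naalad2, a peptidase related to glutamate carboxypeptidase II, lies on chromosome 9. The range over libraries was 0.939 to 19.2 CPM for Gm20767 and 6.30 to 71.1 CPM for Gm21761. Of the 26 other 2-cell genes with a mean of at least 1 CPM, 15 were among the 50 nearest genes. The median r of the 26 was 0.86 beside 0.01 for all genes ranked. Their list includes Usp17l copies and Zscan4b and Zscan4e, whose coding sequences are 96.6 to 97.9% identical to the Zscan4 members. Reads may be shared with these copies, so their likeness is not independent of the members.

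Factors linked to the 2-cell-like state, and listed here as its activators, did not move as 1 group. The list includes Tet1, Tet2 and Zmym2, and whether each listed gene promotes the state was not checked here. Of 8 listed besides Zscan4c, 7 were tested, and edgeR called 0 in KO against WT, beside 13.2% of all tested genes. In 41585 against WT 3 were called, which is 42.9% of the 7, beside 29.2% of all tested genes. Dppa2, which acts upstream of Dux, rose by a log2 fold of 1.12 ± 0.34 SE (edgeR, adjusted p = 0.030) and Nelfa, a subunit of the negative elongation factor, by 0.94 ± 0.31 (adjusted p = 0.041). Tet1, which oxidises methylated cytosine, fell by 1.15 ± 0.36 on the log2 scale (adjusted p = 0.033). Leaving out 1 library moved this count of 3 to between 0 and 4, with 0 without the first WT or either 41585 library and 1 without either KO library. The eighth gene, Duxf3, the Dux gene itself, held 18 reads in all, at 0 to 0.515 CPM per library, and was not tested. Gata2, another listed factor, measured 2.90 CPM in WT, 2.13 in KO and 1.31 in 41585 by group mean and was not called.

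Of 27 chromatin and RNA-binding factors reported to restrain the state, all tested, 3 rose and 1 fell in KO against WT, 8 rose and 2 fell in 41585 against WT, and 7 rose and 2 fell in the pooled comparison. Over all genes, 7.29%, 16.3% and 17.6% rose and 5.9%, 12.9% and 14.6% fell in these comparisons. The list medians were 0.25, 0.001 and 0.005. Leaving out 1 library, the called counts of 4, 10 and 9 ran from 1 to 6, from 2 to 14 and from 3 to 10. The lowest were 1 for KO against WT without the first WT or first KO library, 2 for 41585 against WT without the first WT library, and 3 for the pooled comparison without the first KO or first 41585 library. Ehmt2, the histone H3 lysine 9 methyltransferase G9a, rose by a log2 fold of 2.09 ± 0.47 SE in KO (edgeR, adjusted p = 0.014) and 3.06 ± 0.48 in 41585 (adjusted p = 0.0021). Hdac1, a histone deacetylase, rose by 0.94 ± 0.28 and 1.09 ± 0.29 (edgeR, adjusted p = 0.046 and 0.016). L3mbtl2, a Polycomb protein, rose by 1.39 ± 0.27 in 41585 (edgeR, adjusted p = 0.0055) and stood at 0.78 ± 0.27 in KO (adjusted p = 0.074). Lin28a, an RNA-binding protein that blocks let-7 maturation, fell by 2.96 ± 0.37 on the log2 scale in KO (edgeR, adjusted p = 0.00065) and fell by 3.04 ± 0.37 in 41585 (adjusted p = 0.00061). Its means were 166 CPM in WT, 21.4 in KO and 20.2 in 41585.

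Genes of telomere maintenance and recombination, the process ZSCAN4 is linked to, were mostly lower where a difference was called. Of 17 tested, 0 rose and 2 fell in KO against WT, 1 rose and 8 fell in 41585 against WT, and 1 rose and 7 fell in the pooled comparison, in which 14.6% of all genes fell. The corresponding share over all genes was 5.9% for KO against WT and 12.9% for 41585 against WT. Dmc1, a meiotic recombinase, fell by 2.54 ± 0.69 on the log2 scale in KO (edgeR, adjusted p = 0.032) and by 3.30 ± 0.72 in 41585 (adjusted p = 0.0082). Pot1a, which binds single-stranded telomeric DNA, fell by 0.88 ± 0.26 and by 1.32 ± 0.26 (edgeR, adjusted p = 0.041 and 0.0055). Blm, a RecQ helicase, and Dkc1, the dyskerin of telomerase, fell in 41585 by 1.08 ± 0.25 and 0.96 ± 0.24 (edgeR, adjusted p = 0.010 and 0.013). Daxx, the histone chaperone partner of ATRX, was the 1 gene that rose, by 1.68 ± 0.37 in 41585 (edgeR, adjusted p = 0.0088). Leaving out 1 library, the counts called ran from 0 to 10 in 41585 against WT and from 0 to 5 in KO against WT.

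Markers of other cell types also differed between the groups. The 8 trophectoderm markers summed to 249.1 and 249.2 CPM in KO, 319 and 70.5 in 41585, 94.96 and 79.1 in WT, and 36.1 to 68.5 in 41584, 41589 and SOM. Of the 6 tested, 4 rose in KO against WT (Krt8, Krt18, Elf5 and Hand1), beside 7.29% of all genes, and in 41585 against WT 2 rose (Krt8 and Krt18) and 1 fell (Tfap2c), beside 16.3% and 12.9%. Cdx2 reached 0.244 CPM at most and was at 0 in some libraries. The 6 germ cell markers summed to 627 and 301 CPM in WT, 102 to 140 in KO and 41585, and 145 to 359 in the other lines, and 3 of them (Dazl, Sycp3 and Mael) fell and 1 (Nanos3) rose in KO against WT, where 5.9% of all genes fell. In 41585 against WT, 4 of them fell (Dazl, Sycp3, Mael and Ddx4), beside 12.9% of all genes. Fibroblast markers summed to 7.08 to 41.4 CPM, with Col1a1, Col1a2, Col3a1, Lum, Dcn and Postn each at 0 in some libraries and at 1.53 CPM or less in all. Of the 2 tested, Pdgfra fell in 41585 against WT, beside 12.9% of all genes, and Thy1 was not called. Neither was called in KO against WT. The 7 primitive endoderm markers summed to 5.23 to 14.6 CPM in 10 libraries and to 21.8 and 54.2 in the first WT and 41584 libraries, with Afp at 0 throughout. Of the 4 tested, Gata6 fell in KO against WT, and Gata6 and Dab2 fell in 41585 against WT, beside 5.9% and 12.9% of all genes. Without the first WT library, 0 trophectoderm, 1 germ cell and 0 primitive endoderm markers were called in both comparisons. The part of these other cell types in the levels of the 6 genes was not tested.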

How the data were processed

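Poly(A) RNA of 12 libraries was prepared with a reverse-stranded TruSeq kit and sequenced on a HiSeq2000, per the labels' protocols and design text. Per the submitters' processing notes, STAR 2.4.2a and mm10 (GRCm38) were used. Which program counted the reads, with which annotation and how it treated reads of several origins, is not given there. The table deposited by the authors holds unnormalized whole-number counts. GENCODE M21 gave symbols to 47224 genes and left 419 without one.

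Groups were compared by the robust quasi-likelihood test of edgeR 4.0.16 (TMM scaling, filterByExpr, 1 mean per group, all 12 libraries, 6 residual degrees of freedom, common biological coefficient of variation 0.278) and adjusted by Benjamini-Hochberg over all 14629 tested genes, with 0.05 as the threshold. Standard errors are those of the fit, with n = 2 libraries per group. Alternatives were DESeq2 1.42.0, RLE scaling, no filter, a replicate block, fits on the compared groups alone and leaving out each library. Likeness used log2(CPM + 1) of genes with a mean of at least 1 CPM. The genes named are the 6 members, the 6 most alike, up to 4 genes per list by F test, and Dicer1, with the genes called in a list where few were. Where these do not cover a gene (the other Zscan4, Usp17l and Tdpoz copies, and list genes called in 1 comparison), it was chosen after its values were seen. The members and lists were chosen with earlier results of these data known. The test was tested on simulated data.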

Additional observations from a re-analysis of the deposited data

How the results depend on the processing

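The log2 folds and F values of the members were recomputed for 38 results under 17 or 18 alternatives each, which gave 672 values, of which 589 kept direction and side of the threshold, 53 gained a call, 24 lost one and 6 changed sign. For KO against WT, 0 members were called in every fit that left out 1 library, 1 with no filter on low counts and 2 when only the groups compared were fitted. For 41585 against WT the main count of 2 ran from 0 to 3 when 1 library was left out, and was 5 without the filter, 6 on the groups compared, and 5 without both the second 41589 and the second SOM library. For 41589 against KO, 0 to 1 were called when 1 library was left out, 1 with DESeq2, 2 without the filter and 1 with the replicate block, all lower (Tdpoz3, and Tdpoz4 without the filter), and 1 without those 2 libraries, which was Zscan4f and higher. For 41585 against KO the count was 2 without the filter and 1 on the groups compared. For 41585 against 41584 it ran from 0 to 1 when 1 library was left out, and was 2 without the filter, 0 on the groups compared and 2 without those 2 libraries. The pooled comparison of KO and 41585 gave 2 to 4 when 1 library was left out, 4 without the filter and 4 with the replicate block. The F test gave 0 to 4 when 1 library was left out, 6 without the filter and 4 without those 2 libraries. The other 6 comparisons called 0 members in all alternatives run. Beside these counts, 41585 against WT had 4950 of 27047 tested genes called without the filter and 6023 of 13843 on the groups compared. Without the filter, the pooled comparison had 5508 of 27047 genes called and the F test 4872. KO against WT had 4892 of 13635 on the groups compared. Sign changes, all in folds that were not called, came in KO against WT for Zscan4c (−0.90 to 0.22 when 1 library was left out), Zscan4f (−0.46 to 0.081), Usp17lc (−0.15 to 0.75) and Tdpoz3 (−0.074 to 0.69), and for Zscan4f at −0.048 in the pooled comparison without those 2 libraries. Of the 6 genes most like the members, 3 remained by Spearman's rho and 3 to 6 when 1 library was left out. The cause of these differences was not tested.

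Replicate numbers are shared between groups, and deviations of same-numbered libraries correlated between −0.083 and 0.51, over 0.1 in 5 of the 15 pairs of groups and not in the other 10. Since not every pair exceeded 0.1 and no label names a shared day or batch, the numbers were not taken to pair the libraries. Among the members the first library was nonetheless the higher for 4 to 6 of 6 in every group. The replicate block gave 3 members called in 41585 against WT and 3 in the F test and changed no other member count than those given. All-gene counts moved more. When 1 library was left out, KO against WT had 237 to 2859 genes called, 41585 against WT 419 to 5297, 41585 against 41584 348 to 2917, the pooled comparison 2576 to 5921 and the F test 884 to 3625. For SOM against WT they ran from 0 to 311, for 41589 against WT from 0 to 647 and for 41584 against WT from 0 to 106. On the groups compared alone KO against WT had 4892, SOM against WT 2035 and 41585 against KO 545, and the last had 119 without the filter. A group left with 1 library took its spread from the remaining groups. Depth limits Tdpoz3, Tdpoz4 and Usp17lc most, whose lowest libraries held 1, 2 and 3 reads.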
